A study of Mus musculus with 6 samples.

Results

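The dystrophin complex and the muscle integrin complex join the cytoskeleton of a cardiomyocyte (CM) to the matrix around it. The 9 genes described are those of dystrophin (Dmd), its paralog utrophin (Utrn), dystroglycan (Dag1), 3 sarcoglycans (Sgca, Sgcb and Sgcd), the α7 and β1 integrin subunits (Itga7 and Itgb1) and the laminin α2 chain (Lama2). They were taken by symbol from the 23337 genes of the count table, and all 9 had enough counts to be tested. RNA was measured by RNA-seq in CMs of wildtype mice of mixed background, sorted for GFP at P14. At P1 all animals had received AAV9 at 5e8 vg per g under the cardiac troponin T promoter, which restricts expression to CMs. In the SRF-OE group the virus encoded SRF and GFP joined by a 2A peptide, and in the GFP group, the control, GFP alone. The dose transduces a minority of CMs, so the groups compare transduced cells inside hearts that are mosaic. The comparison asks how extra SRF, a transcription factor that binds CArG boxes and drives many contractile and cytoskeletal genes, bears on this set of membrane anchors.

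In striated muscle, dystrophin binds actin beneath the membrane and is held there by dystroglycan, whose outer part binds laminin. The sarcoglycans are membrane proteins that form a subcomplex beside dystroglycan, and loss of one usually destabilises the others. The α7β1 integrin is the second laminin receptor of muscle, and both systems are concentrated at costameres, the rib-like sites where Z-discs meet the membrane. Loss of the corresponding human genes causes muscular dystrophies, several of them with cardiomyopathy.

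The labels list 3 libraries per group, but the column headed SRF-OE replicate 1 holds gene lengths, and 5 libraries have counts. Their totals ran from 14137433 to 23159631, and each of the 9 genes had at least 456 counts in each library. Levels are given as CPM, counts scaled to library size with edgeR's TMM factors. The overexpressed gene was at 360 and 748 CPM in SRF-OE replicates 2 and 3 and at 67.3 and 85.1 CPM in GFP replicates 2 and 3, but at 338 CPM in the library labelled GFP1. Since lengths stand under the first library name, the names of the count columns may be displaced by 1 column, in which case the library labelled GFP1 would belong to SRF-OE and every replicate name would shift. The files do not settle this, so group means and fold changes as labelled hold only if the names are right. Results are therefore given as labelled and without that library. Without it, each remaining library has the same group under either reading, though not the same replicate name. Srf was 3.39-fold higher in SRF-OE as labelled and 7.31-fold higher without that library. By their levels of Xist and 4 Y-linked genes, replicate 2 of each group was female and the remaining 3 libraries were male. The 10 cardiomyocyte markers were abundant in every library, with a summed level of 78349 to 82570 CPM in SRF-OE and 84931 to 122915 CPM in GFP.

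With the 5 libraries as labelled and TMM scaling, 8 of the 9 genes were at a lower level in SRF-OE and Utrn was at a higher one. Itga7 and Sgca showed the largest differences, at 55.6% and 55.7% of the GFP level, and Utrn was 1.38-fold higher. None of the 9 passed an adjusted p of 0.05 in edgeR's quasi-likelihood test, which called 0 of 13754 genes in either direction (0% of genes tested). At an unadjusted p under 0.05, 4 of the 9 were lower (Sgca, Sgcb, Sgcd and Itga7), against 7.59% of all genes, and 1 was higher (Utrn), against 6.35%. The median log2 fold change of the 9 was -0.34, and that of all genes tested was 0.030. In 6 of the 9 the groups did not overlap, 5 lower and 1 higher, where 17.3% of all genes lay entirely lower and 16.1% entirely higher. Without the library labelled GFP1, Itga7 alone passed (0.97% of 13397 genes were called lower and 1.98% higher), the median was -0.42, and the groups of all 9 genes were separate, against 30.2% of genes lower and 30.8% higher.

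**Figure D1:**
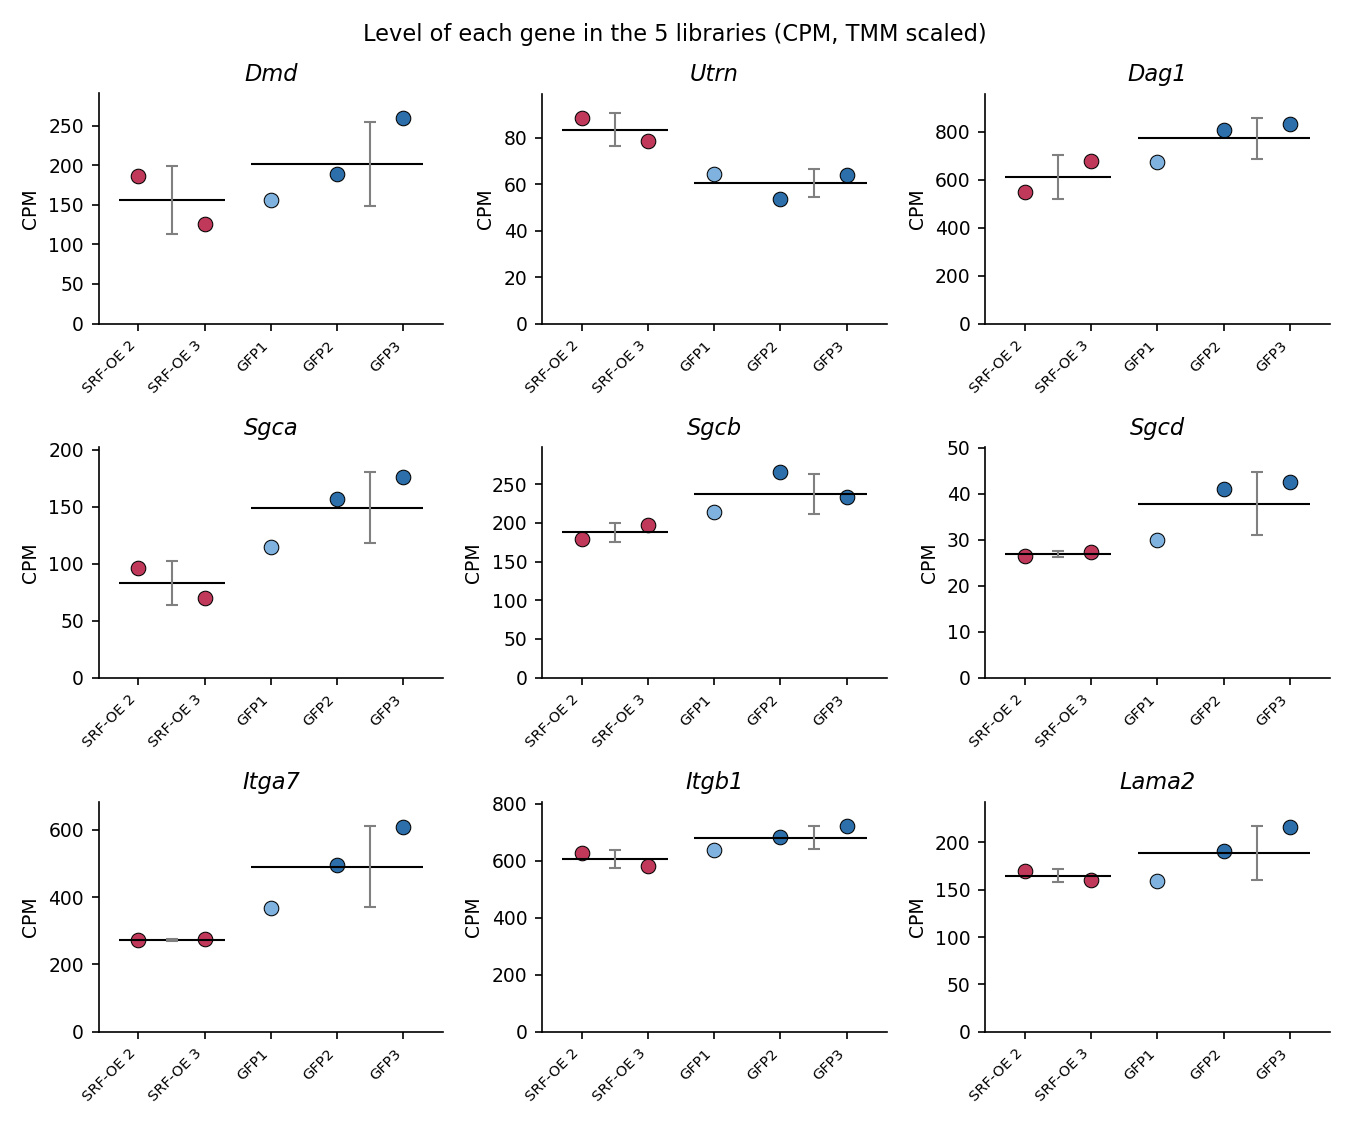
Level of each of the 9 genes in the 5 libraries, in CPM on axes that start at 0, with SRF-OE in red, GFP in blue and the library labelled GFP1 in light blue. Black lines are group means and grey bars 1 SD. Itga7 and Sgca in SRF-OE lie under all GFP libraries, Utrn lies above them, and the groups overlap for Dmd, Dag1 and Lama2.

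For each of the 9 genes, the library labelled GFP1 was the GFP library nearest to the SRF-OE mean, as it was for 61.2% of all genes tested. The cardiomyocyte markers were lower in SRF-OE as well: 8 of 10 had a negative log2 fold change, with a median of -0.42 (-0.51 without the library labelled GFP1), and 0 passed in edgeR's quasi-likelihood test, either adjusted or at an unadjusted p under 0.05. In 5 of the 10 both SRF-OE libraries lay under all GFP libraries, against 17.3% of all genes. Leaving out the library labelled GFP1, edgeR put 3 of 10 lower with an unadjusted p under 0.05, against 14% of all genes. The part of this shift in the lower levels of the 9 genes was not tested. In sorted bulk samples, fewer cells of a type and less RNA per cell cannot be told apart.

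**Figure D2:**
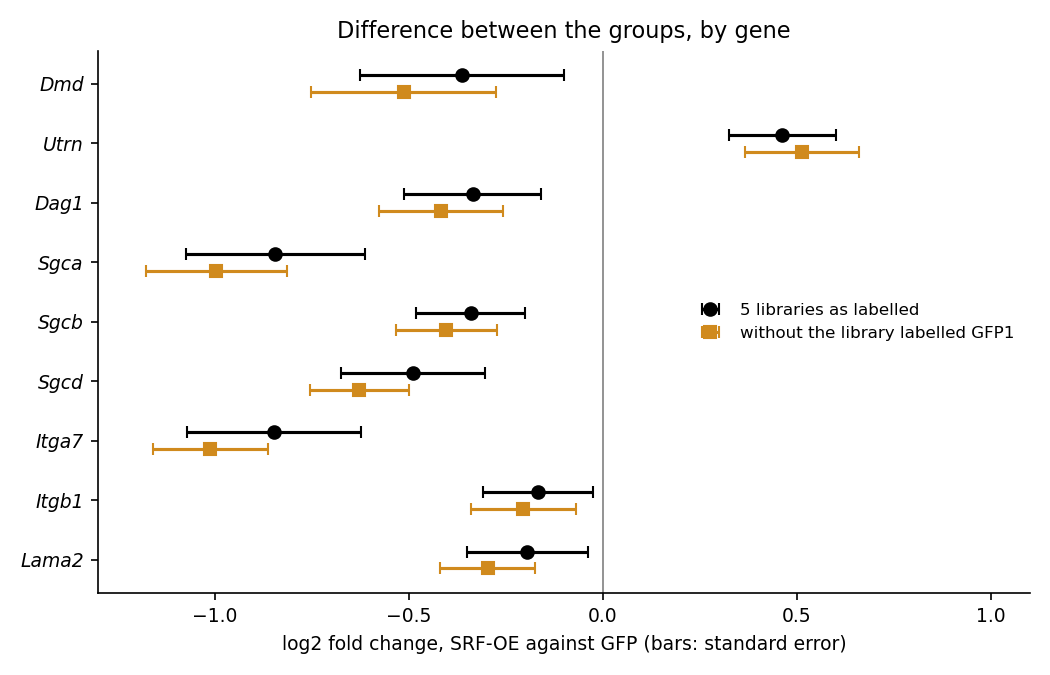
Log2 fold change of each gene, SRF-OE against GFP, with its standard error, for the 5 libraries (black circles) and without the library labelled GFP1 (orange squares). Each gene keeps its side of 0, and each moves further from 0 without that library, Itga7 from -0.85 to -1.01.

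Dmd encodes dystrophin, the long rod that ties actin to the membrane complex. It lies on chromosome X of GRCm38 (82948870 to 85206141, plus strand). SRF-OE replicates 2 and 3 had 187 and 126 CPM, the library labelled GFP1 had 156 CPM, and GFP replicates 2 and 3 had 189 and 259.5 CPM. The female SRF-OE library was level with the female GFP library, while the male one was the lowest of the 5, so the groups overlap. The means were 157 ± 43.0 CPM (SD, n = 2) and 201 ± 53.0 CPM (SD, n = 3), a log2 fold change of -0.36 ± 0.26 (SE, edgeR quasi-likelihood adjusted p = 0.52). Within females the log2 difference was -0.015, and in males SRF-OE replicate 3 differed from the mean of both GFP libraries by -0.67, each with 1 SRF-OE library and no test. The table counts reads per gene, so the full-length muscle form cannot be separated from the shorter products of internal starts.

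Utrn, on chromosome 10 (12382188 to 12869365, minus strand), encodes utrophin, which binds the same partners and is more widespread before and around birth and outside muscle. It was at 88.5 and 78.5 CPM in SRF-OE replicates 2 and 3, 64.3 CPM in the library labelled GFP1, and 53.5 and 63.9 CPM in GFP replicates 2 and 3. Both SRF-OE libraries lay above every GFP library. The means of 83.5 ± 7.05 CPM (SD, n = 2) and 60.6 ± 6.14 CPM (SD, n = 3) gave a log2 fold change of 0.46 ± 0.14 (SE, edgeR quasi-likelihood adjusted p = 0.35, unadjusted p = 0.013). Without the library labelled GFP1 it was 0.51 ± 0.15 (SE, edgeR adjusted p = 0.090). Utrn was higher in SRF-OE within each sex, by 0.73 on the log2 scale in females and by 0.29 in males (against the mean of both male GFP libraries).

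Utrophin is also made by endothelial cells and fibroblasts, whose markers differed between libraries. The 10 endothelial markers summed to 870.2 and 345 CPM in SRF-OE replicates 2 and 3, and to 365 to 671 CPM in GFP. All 10 had a positive log2 fold change, with a median of 0.40, or 0.76 without the library labelled GFP1. The 10 fibroblast markers summed to 462 to 926 CPM in SRF-OE and 334 to 499.9 CPM in GFP, and 10 of 10 had a positive log2 fold change, with a median of 0.80 (0.98 without that library). Smooth muscle and pericyte markers summed to 690.1 to 707 CPM in SRF-OE and 548 to 733 CPM in GFP, and 9 of 10 had a positive log2 fold change, with a median of 0.62 (0.998 without that library). Macrophage markers summed to 17.9 to 45.6 and 14.9 to 35.8 CPM, and Schwann cell markers to 54.5 to 69.8 and 43.9 to 79.7 CPM. The macrophage median was 0.44 (1.00 without that library). At an unadjusted p under 0.05 in edgeR, 5 fibroblast, 3 smooth muscle and pericyte and 0 endothelial markers were higher, against 6.35% of all genes. Without the library labelled GFP1 these were 9, 6 and 1, against 14.4%. Of the 9 macrophage markers tested, 0 were higher as labelled and 3 without that library. The adjusted cutoff was then passed by 1 fibroblast and 1 smooth muscle and pericyte marker, both higher, against 1.98% of all genes. In both fits 1 smooth muscle and pericyte marker was lower, against 7.59% and 14%. The part of these cell types in the level of Utrn was not tested.

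Divided by gene length, Utrn stood at 0.529 of Dmd in SRF-OE replicate 2 and 0.696 in SRF-OE replicate 3. In the library labelled GFP1 the ratio was 0.462, and in GFP replicates 2 and 3 it was 0.317 and 0.276. Both SRF-OE values were above all GFP values, by 0.82 on the log2 scale between the group means (two-sided exact permutation test, p = 0.20). With 2 libraries against 3 that test cannot give a p under 0.1. It was 1.04 when the library labelled GFP1 was left out (exact permutation p = 0.33, the smallest it can give).

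**Figure D3:**
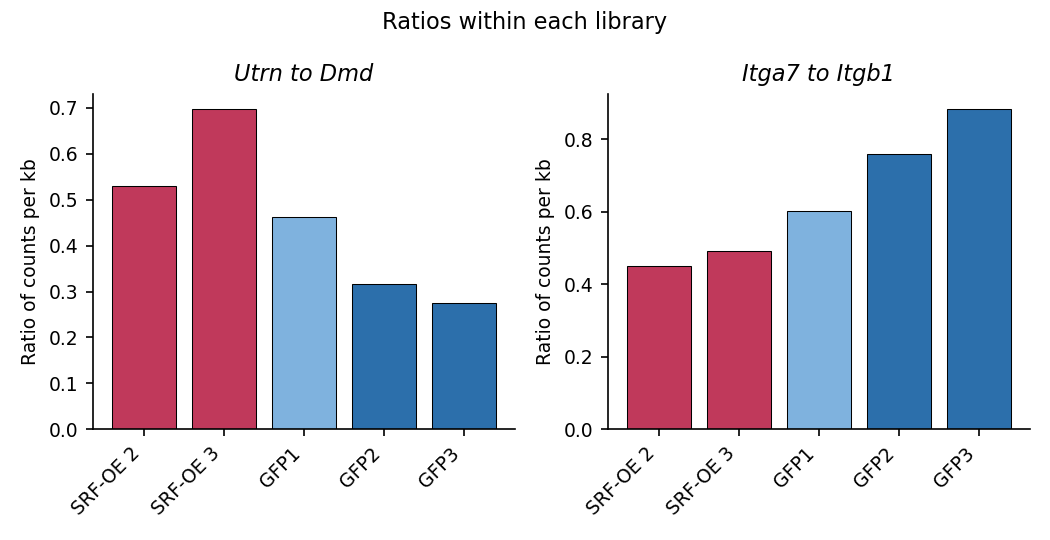
Ratio of Utrn to Dmd and of Itga7 to Itgb1 in each library, from counts per kb of gene length, on axes that start at 0. SRF-OE libraries (red) are the highest for Utrn to Dmd and the lowest for Itga7 to Itgb1, and the library labelled GFP1 (light blue) lies between them and GFP replicates 2 and 3.

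Since SRF binds CArG boxes, the RefSeq promoter windows of the genes (GRCm38.p6, 250 bases before and 50 after a start) were searched for that motif and for CATTCC, the site of TEAD factors, on both strands. Windows were found for 8 of the 9 genes, Itga7 being the exception. A CArG box was present for 2 genes, Dmd and Lama2, and in 1.63% of all 32851 windows. CATTCC was present for Itgb1 and Sgcd, and in 14.7% of all windows. The windows of Sgcd (chr11:47379276-47379575) and Utrn (chr10:12861686-12861985) lie inside the wider GENCODE intervals given with their values. The outermost starts of these intervals were therefore not searched. The Dmd box lies in the window of the full-length gene and begins 98 bases before the start, and the Lama2 box begins 39 bases before the RefSeq start, which lies inside the wider GENCODE interval of Lama2 given with its values. The 250 bases before the start are shown for these 2 genes, and for Sgca, the gene with a window that differed most between the groups, in which neither motif was found. Capitals mark the CArG box. The Dmd bases are chrX:82948620-82948869 on the plus strand, those of Lama2 are chr10:27616943-27617192 and those of Sgca chr11:94976328-94976577, both on the minus strand.
Dmd: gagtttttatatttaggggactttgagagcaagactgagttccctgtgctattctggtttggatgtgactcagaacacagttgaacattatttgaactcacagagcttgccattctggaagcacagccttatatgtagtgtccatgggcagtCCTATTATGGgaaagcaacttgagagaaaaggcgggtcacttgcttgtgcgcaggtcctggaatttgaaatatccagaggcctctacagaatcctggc
Lama2: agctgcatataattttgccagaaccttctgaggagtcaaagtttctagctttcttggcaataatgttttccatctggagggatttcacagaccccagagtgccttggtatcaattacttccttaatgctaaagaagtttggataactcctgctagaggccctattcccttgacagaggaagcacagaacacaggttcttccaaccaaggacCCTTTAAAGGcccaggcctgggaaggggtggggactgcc
Sgca: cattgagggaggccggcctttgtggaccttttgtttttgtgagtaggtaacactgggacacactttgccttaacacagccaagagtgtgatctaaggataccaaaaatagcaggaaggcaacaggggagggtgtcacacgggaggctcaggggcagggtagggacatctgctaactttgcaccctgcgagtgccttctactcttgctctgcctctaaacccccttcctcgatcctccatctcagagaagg
A match describes the letters only, and binding was not measured in these files. Of the 2 genes with a CArG box, neither Dmd nor Lama2 passed the test, and both had lower means in SRF-OE.

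Dag1, on chromosome 9 (108204634 to 108263958, minus strand), encodes dystroglycan, which is cut into an outer part that binds laminin and an inner part that binds dystrophin. Dag1 was at 547 and 676 CPM in SRF-OE replicates 2 and 3, 675 CPM in the library labelled GFP1, and 808 and 832 CPM in GFP replicates 2 and 3. The higher SRF-OE library and the library labelled GFP1 were level, and the other GFP libraries were above both. The log2 fold change was -0.34 ± 0.18 (SE, edgeR quasi-likelihood adjusted p = 0.41), and -0.42 (edgeR adjusted p = 0.16) once the library labelled GFP1 was left out.

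Of the 3 sarcoglycan genes among the 9, Sgca differed most. It encodes α-sarcoglycan, which is largely restricted to striated muscle, and lies on chromosome 11 (94962791 to 94976327, minus strand). It was at 96.7 and 69.6 CPM in SRF-OE replicates 2 and 3, 115 CPM in the library labelled GFP1, and 157 and 176 CPM in GFP replicates 2 and 3. All SRF-OE values were under all GFP values. The means were 83.1 ± 19.2 CPM (SD, n = 2) and 149 ± 31.3 CPM (SD, n = 3), a log2 fold change of -0.84 ± 0.23 (SE, edgeR quasi-likelihood adjusted p = 0.35, unadjusted p = 0.0091). Without the library labelled GFP1 it was -0.996 ± 0.18 (SE), with an edgeR adjusted p of 0.0503, just over the cutoff. The antisense neighbour Hils1 had at most 7 counts in a library, and since the strand setting is not stated, reads where both genes overlap cannot be assigned.

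Sgcb and Sgcd encode β- and δ-sarcoglycan, which assemble first and are also made in smooth muscle. Sgcb (chromosome 5, 73632749 to 73647790, minus strand) was at 179 and 197 CPM in SRF-OE replicates 2 and 3, 214 CPM in the library labelled GFP1, and 266 and 233 CPM in GFP replicates 2 and 3. Sgcd (chromosome 11, 46896253 to 47988969, minus strand) was at 26.4 and 27.4 CPM in SRF-OE replicates 2 and 3, 29.9 CPM in the library labelled GFP1, and 41.0 and 42.5 CPM in GFP replicates 2 and 3. For both genes the groups did not overlap, and the library labelled GFP1 was the lowest of its group. The log2 fold changes were -0.34 ± 0.14 (SE) for Sgcb and -0.49 ± 0.19 (SE) for Sgcd, each with an adjusted p of 0.36 from edgeR's quasi-likelihood test. Leaving out the library labelled GFP1, Sgcd was at -0.63 and Sgcb at -0.40 (edgeR adjusted p of 0.056 and 0.11).

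Itga7 encodes the α7 integrin subunit, the main laminin-binding α subunit of adult striated muscle, and lies on chromosome 10 (128933818 to 128958282, plus strand). Both SRF-OE libraries were close together, at 271 and 274 CPM. The library labelled GFP1 had 368 CPM, and GFP replicates 2 and 3 had 496 and 608 CPM. The groups were separate, and the spread was far wider in GFP, with means of 273 ± 2.32 CPM (SD, n = 2) and 491 ± 120.3 CPM (SD, n = 3). The log2 fold change was -0.85 ± 0.22 (SE, edgeR quasi-likelihood adjusted p = 0.35, unadjusted p = 0.0079). Without the library labelled GFP1, Itga7 fell to 49.6% of the GFP level, a log2 fold change of -1.01 ± 0.15 (SE, edgeR adjusted p = 0.047). It was lower in SRF-OE within each sex, with log2 differences of -0.87 in females and -0.79 in males (against the mean of both male GFP libraries). DESeq2, the tool named in the study's methods, gave Itga7 an adjusted p of 0.015 with the 5 libraries as labelled, but only with independent filtering, which left 1079 genes with an adjusted p. Of those 1079, 11 were called higher and 213 lower. Without that filtering the adjusted p of Itga7 was 0.080, and DESeq2 called 0 of the 9 genes.

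Its partner Itgb1, on chromosome 8 (128685654 to 128733200, plus strand), encodes the β1 subunit, which pairs with many α subunits in nearly all cell types. It was at 628 and 582 CPM in SRF-OE replicates 2 and 3, 638 CPM in the library labelled GFP1, and 681 and 720.1 CPM in GFP replicates 2 and 3. The groups did not overlap, but by a narrow margin, and the log2 fold change was -0.17 ± 0.14 (SE, edgeR quasi-likelihood adjusted p = 0.58). Per length, Itga7 stood at 0.450 and 0.492 of Itgb1 in SRF-OE replicates 2 and 3. The ratio was 0.601 in the library labelled GFP1 and 0.760 and 0.881 in GFP replicates 2 and 3. The difference of the group means was -0.65 on the log2 scale (two-sided exact permutation test, p = 0.20), and -0.80 without the library labelled GFP1 (exact permutation p = 0.33, the smallest it can give). The antisense neighbour Mettl7b of Itga7 had at most 2 counts in a library.

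Lama2, on chromosome 10 (26980036 to 27619758, minus strand), encodes the α2 chain of the laminin to which both receptors bind in muscle. It was at 169.7 and 160.2 CPM in SRF-OE replicates 2 and 3, 159.6 CPM in the library labelled GFP1, and 191 and 216 CPM in GFP replicates 2 and 3. The lowest value of the 5 was thus in the GFP group. The log2 fold change was -0.20 ± 0.16 (SE, edgeR quasi-likelihood adjusted p = 0.57).

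Per length of gene, the 9 genes spanned mean levels from 160.2 CPM per kb for Dag1 to 5.63 for Utrn and kept nearly the same order in every library. In CPM per kb, Dag1 stood at 138 ± 20.7 (SD, n = 2) in SRF-OE and 175 ± 19.2 (SD, n = 3) in GFP, and Itgb1 at 144 ± 7.72 and 162 ± 9.75. Dag1 came first in 4 of the 5 libraries and Itgb1 in SRF-OE replicate 2, so these neighbours did not differ beyond their spread. Itga7 took the third place in each library, at 67.9 ± 0.576 in SRF-OE and 122 ± 29.9 in GFP. Sgca and Sgcb followed, with Sgca above Sgcb in 4 libraries and below it in SRF-OE replicate 3. Sgcd, Lama2, Dmd and Utrn took the last 4 places in that order in every library, Utrn at 6.74 ± 0.570 in SRF-OE and 4.89 ± 0.496 in GFP. Dmd, Utrn and Lama2 are also the longest of the 9 genes (13852, 12382 and 9713 bp). Coverage along the transcripts was not tested, so the part of length in this order is not known. The ranges of Sgcb and Sgcd did not overlap, nor did those of Dmd and Utrn, while those of the other neighbours did.

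**Figure D4:**
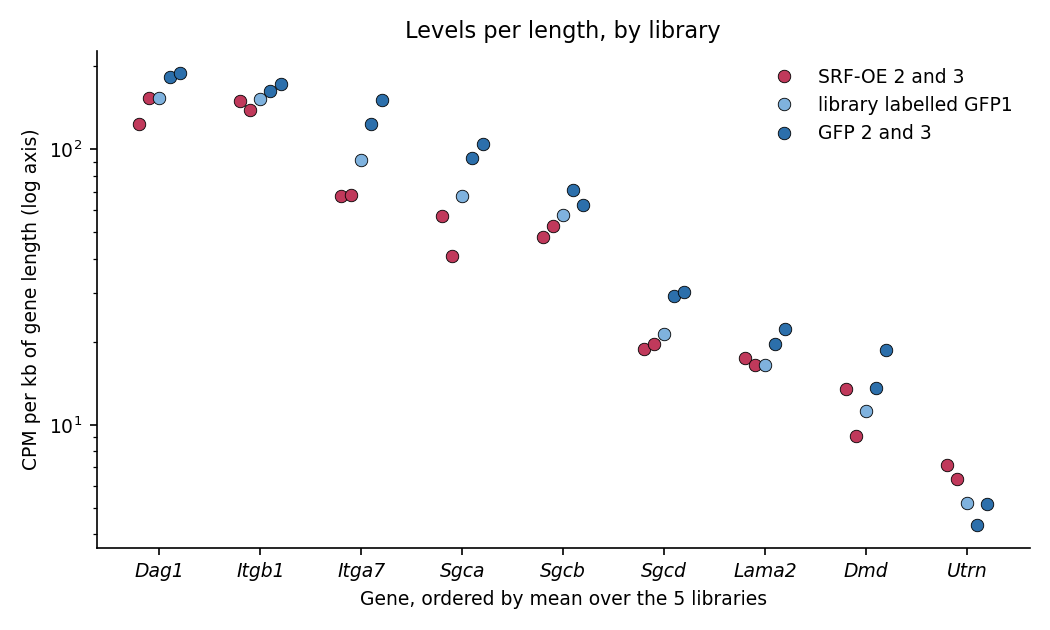
Level of each gene in CPM per kb of gene length on a log axis, with genes ordered by their mean over the 5 libraries. SRF-OE libraries are red, GFP replicates 2 and 3 blue and the library labelled GFP1 light blue. The order runs from Dag1 and Itgb1 to Utrn, and the ratio between group means is largest for Itga7 and Sgca.

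Other genes of the same systems were counted from lists. Of the 11 further partners of the dystrophin complex, 9 were tested and 0 passed in edgeR's quasi-likelihood test with the 5 libraries as labelled. At an unadjusted p under 0.05, 2 were lower and 0 higher, against 7.59% and 6.35% of all genes, with a median log2 fold change of 0.029 against 0.030 over all genes. Sspn, which encodes sarcospan, a small membrane protein bound to the sarcoglycans, was at 397 and 394 CPM in SRF-OE and 456 to 570.4 CPM in GFP, a log2 fold change of -0.41 ± 0.15 (SE).

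The enzymes that put the laminin-binding sugar chain on dystroglycan form the second list, with 16 of 17 found in the table and tested. None passed the adjusted test in edgeR, 2 were higher and 2 lower at an unadjusted p under 0.05, against 6.35% and 7.59% of all genes, and the median log2 fold change was -0.052. Pomgnt1, which extends the O-mannosyl sugar, had a log2 fold change of -0.21 ± 0.15 (SE). The gene of B4gat1, an enzyme that primes the chain for elongation by LARGE, is listed as B3gnt1 and was at 62.7 and 61.5 CPM in SRF-OE and 76.6 to 92.0 CPM in GFP, at a log2 fold change of -0.48 ± 0.13 (SE, edgeR quasi-likelihood adjusted p = 0.35, unadjusted p = 0.0096).

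Of the 14 other laminin chains and basement membrane genes, 12 were tested, 0 passed in edgeR, and at an unadjusted p under 0.05 1 was lower and 0 were higher, against 7.59% and 6.35% of all genes. That gene was Lamb2, the β2 chain of mature muscle laminin, at 559 and 545 CPM in SRF-OE and 634 to 959 CPM in GFP, with a log2 fold change of -0.53 ± 0.20 (SE). Lamc1, the γ1 chain shared by most laminins, had a log2 fold change of -0.045 ± 0.12 (SE).

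The 16 other integrin subunits were all tested. None passed in edgeR with the 5 libraries, 12 had a positive log2 fold change and 4 a negative one, and the median was 0.49. At an unadjusted p under 0.05, 3 were higher and 2 lower, against 6.35% and 7.59% of all genes. In 7 of the 16 the SRF-OE libraries lay above all GFP libraries and in 2 below them, against 16.1% and 17.3% of all genes. Of the 7 above, Itga8, Itgb4, Itgb3, Itga10, Itgb8 and Itga11 had means of only 0.39 to 3.99 CPM, and Itga3 of 37.4 CPM. Among the 4 most abundant subunits, Itga9, Itgb5 and Itgb6 had negative log2 fold changes and Itga5 a positive one. Itga9, an abundant α subunit here, was at 147 and 165 CPM in SRF-OE and 187 to 277 CPM in GFP, a log2 fold change of -0.58 ± 0.19 (SE). Itga5, of the fibronectin receptor, had a log2 fold change of 0.21 ± 0.17 (SE). The part of other cell types in this list was not tested.

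The 19 adaptors of the costamere gave a median log2 fold change of -0.020, with 0 passing in edgeR's quasi-likelihood test and, at an unadjusted p under 0.05, 3 higher and 1 lower, against 6.35% and 7.59% of all genes. In 6 of the 19 the SRF-OE libraries lay under all GFP libraries and in 2 above them, against 17.3% and 16.1% of all genes. Leaving out the library labelled GFP1, the median was -0.050. At an unadjusted p under 0.05 in edgeR, 5 were then higher and 3 lower, against 14.4% and 14% of all genes. Without the library labelled GFP1, Lims2 rose: it encodes PINCH-2, an adaptor bound to integrin-linked kinase. Lims2 was at 64.2 and 73.6 CPM in SRF-OE, 69.7 CPM in the library labelled GFP1, and 21.7 and 18.8 CPM in GFP replicates 2 and 3. The library labelled GFP1 lay inside the SRF-OE range, and the log2 fold change was 0.90 as labelled ± 0.55 (SE, edgeR quasi-likelihood adjusted p = 0.46) and 1.77 without that library ± 0.16 (SE, edgeR adjusted p = 0.042). Itgb1bp2, named after its values were seen, encodes melusin, a muscle protein that binds the β1 integrin tail. It was at 240.1 and 155 CPM in SRF-OE and 244 to 428 CPM in GFP, a log2 fold change of -0.84 ± 0.30 (SE, edgeR adjusted p = 0.35). Flnc and Nrap, the adaptors with the highest mean CPM, had log2 fold changes of 0.26 ± 0.27 (SE) and -0.11 ± 0.18 (SE). Leaving out the library labelled GFP1, 0 genes of the other 4 lists passed in edgeR, with medians of 0.061 for the complex partners, -0.057 for the glycosylation enzymes, -0.065 for the laminins and 0.54 for the integrin subunits. At an unadjusted p under 0.05 these 4 lists then held, in that order, 2, 2, 3 and 4 genes higher and 3, 4, 4 and 3 lower, against 14.4% and 14% of all genes.

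**Figure D5:**
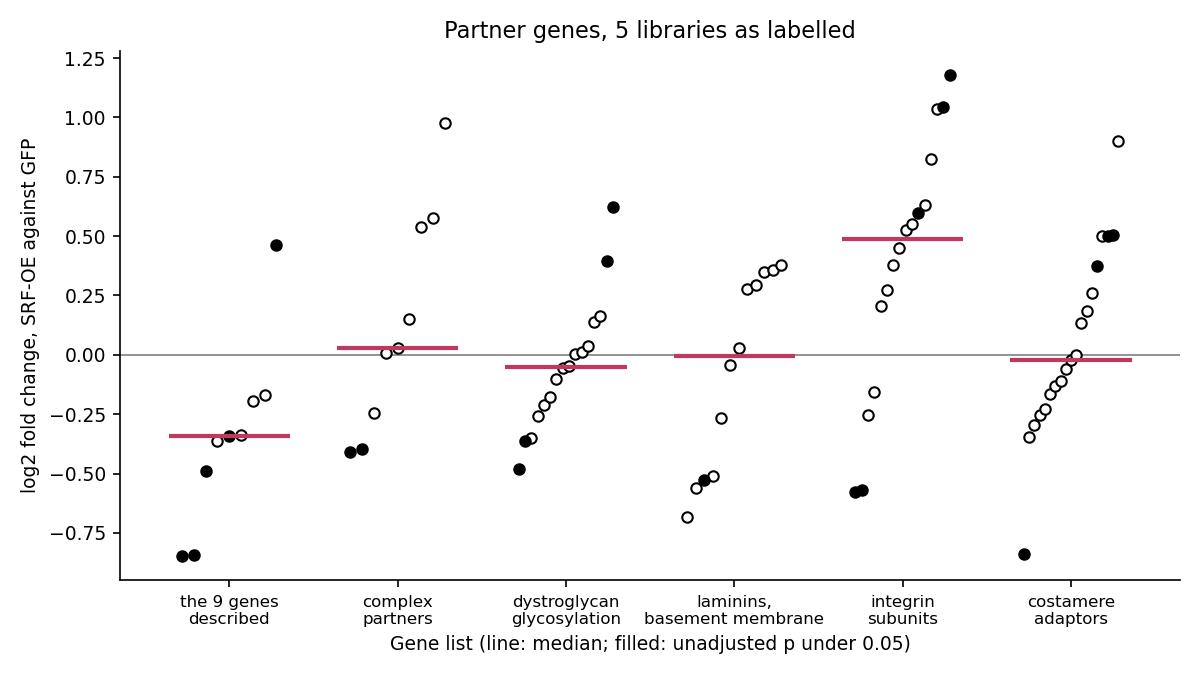
Log2 fold change, SRF-OE against GFP with the 5 libraries as labelled, of the 9 genes and of each tested gene of the 5 partner lists. Each point is a gene, filled at an unadjusted p under 0.05, and red lines are medians. The 9 genes have a median of -0.34 and the other integrin subunits, several of them at low levels, 0.49, while the other lists lie near 0.

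Among 8517 genes with a mean of at least 10 CPM, those whose log2 CPM followed Dmd most closely over the 5 libraries were Phlpp1, Ppargc1b and Dstyk, with Pearson's r of 0.997, 0.995 and 0.995. For Itga7 they were Dnaja3, Cox10 and Ogdh, with r of 0.9998, 0.9996 and 0.9996, and 84 genes reached an r of 0.99 with Itga7, against 7 with Dmd. Dnaja3 is a mitochondrial chaperone, Cox10 acts in heme synthesis for cytochrome c oxidase, and Ogdh is an enzyme of the TCA cycle. Ogdh was at 2627 and 2622 CPM in SRF-OE and 3268, 4193 and 4861 CPM in the library labelled GFP1 and GFP replicates 2 and 3, the order of Itga7. With 5 libraries that share their scaling, these are descriptions of likeness only.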

How the data were processed

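Polyadenylated RNA of sorted CMs was amplified with SMART-Seq v4 and sequenced. The submitters' processing notes name STAR 2.5.3a, Subread 1.5.2 and mm10. The authors deposited raw counts per gene, without normalization, and the strand setting and annotation are not given in the sources used here. The first value column holds gene lengths in bp (smallest 20, with 0 zeros) and was used only as length. Columns were assigned by name, and 0 were left unused.

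edgeR 4.0.16 in R 4.3.3 was run on all genes with filterByExpr, TMM factors, glmQLFit and glmQLFTest, with Benjamini-Hochberg adjustment over all genes tested and a cutoff of 0.05. The standard error is the log2 fold change divided by the square root of F. The edgeR p-values test the group difference against the spread between libraries, which is estimated with help from all genes tested. Permutation p-values compare the labelled grouping with every other grouping of the libraries. Fits were tested on simulated data with 200 changed genes. Alternatives were DESeq2 1.42.0, other scalings and filters, the replicate block and leaving out each library. Older symbols were matched through RefSeq synonyms.

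The genes and lists were chosen with earlier results of these data known. Named genes are the 9 members, Srf, partner genes past the cutoff with or without the library labelled GFP1, and the 2 with the highest mean CPM in each list, of which 1 is not reported here. Itgb1bp2 was named after its values were seen. Gene positions are from GENCODE M21 (GRCm38).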

Additional observations from a re-analysis of the deposited data

How the results depend on the processing

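All 126 recomputed log2 fold changes of the 9 genes kept their direction. Of the 123 with an adjusted p, 115 kept their side of the cutoff and 8, all of Itga7 or Sgca, newly passed it. These fits used TMM, upper quartile or DESeq2 size factors, and none used plain totals. TMM factors were 1.09 and 1.07 in SRF-OE replicates 2 and 3. They were 1.01 in the library labelled GFP1 and 0.942 and 0.897 in GFP replicates 2 and 3. By plain totals the mean of Itgb1 was slightly higher in SRF-OE, so its direction depended on the scaling. From 0 genes called higher and 0 lower (873 and 1044 at an unadjusted p under 0.05 in edgeR), DESeq2 with independent filtering gave 11 and 213, with 1 of the 9 genes called, Itga7 at -0.85, and 1 integrin subunit and 1 costamere adaptor; it gave an adjusted p to only 1079 genes and 6 of the 9, leaving out Utrn, Sgca and Sgcd. Without that filtering, chosen after seeing the data, it gave 17 and 29 of 21566 genes, with 0 of the 9 genes called and Itga7 at an adjusted p of 0.080. With the replicate block, edgeR called 582 higher and 432 lower of 13754 genes. These included 2 of the 9 genes, 2 integrin subunits and 3 costamere adaptors. Itga7 was at -1.01 (adjusted p = 0.027), Sgca at -1.02 (adjusted p = 0.032) and Srf at 2.78. The numbers only name the libraries, and only 2 numbers are shared. Deviations of same-numbered libraries correlated across genes at 0.47 for number 2 and -0.19 for number 3. Without the library labelled GFP1 both values were 0.21, and with 2 libraries per group they are equal by construction. By the sex-linked genes number 2 is female and number 3 male, so the block is also one of sex there, and both cannot be told apart. The library labelled GFP1 has no partner, and with it left out the block gave 547 and 392 of 13397 genes. These included 2 of the 9 genes, 2 integrin subunits and 3 costamere adaptors. Itga7 was then at -1.0041, Sgca at -1.01 and Srf at 2.78. DESeq2 without filtering and without the library labelled GFP1, chosen after seeing the data, gave 722 and 690 of 21407 genes. Among them were 2 of the 9 genes, 2 partners of the dystrophin complex, 3 laminin and basement membrane genes, 3 integrin subunits and 5 costamere adaptors. In that fit Itga7 was at -1.02, Sgca at -1.01 and Srf at 2.87. Size factors, upper quartile scaling and other filters on low counts called 0 genes.

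Leaving out one library gave 0 to 265 genes higher and 0 to 130 lower, 0 to 1 of the 9 genes, 0 to 1 costamere adaptor, and log2 fold changes of 1.13 to 2.87 for Srf and -1.01 to -0.66 for Itga7; each of these calls came with the library labelled GFP1 left out. Without an SRF-OE library the lone one is assumed to vary like GFP. Dmd ranged from -0.68 without SRF-OE replicate 2 to -0.12 without SRF-OE replicate 3, and Lama2 was at -0.087 without GFP replicate 3. The genes whose groups did not overlap numbered 6 to 9, from 6 of 9 as labelled, and 5 with upper quartile factors and 4 with CPM of plain totals, both chosen after seeing the data. The cause of these lower numbers was not tested. The 9 came without the library labelled GFP1, where 30.2% of all genes lay entirely lower and 30.8% entirely higher. With the 5 libraries these shares were 17.3% and 16.1%. Fewer libraries separate more often, and the shares are not given for the other settings. With 2 libraries against 3, small differences such as that of Itgb1 were not detectable.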
